A study of Mus musculus with 3 samples.

Results

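The acute phase and inflammatory secreted proteins examined here were Saa3, Ptx3, Chil1, Hp, Orm1, Lbp, Lyz2 and Lgals3bp, 8 of the 18193 genes that had a probe set of their own on the array. They were read by 10 of its 45101 probe sets, all those paired with one of these symbols alone, and they were chosen by their known roles and with their values on these arrays already seen, so those values are given as a description with no test. RNA from mouse C3H10T1/2 cells, a mesenchymal cell line, was hybridized to Affymetrix mouse genome arrays in 3 conditions, with 1 array each. The conditions were cells overexpressing Venus-Mkx from a retrovirus, cells overexpressing the fluorescent protein Venus alone from the same retroviral vector, and C3H10T1/2 cells with no vector. All 3 were cultures of the same cell line in medium with fetal bovine serum, the infected cells were kept in puromycin, and no second culture of any condition was measured. The comparison asks how expression differs when Mkx, a homeobox transcription factor of tendon and ligament, is overexpressed.

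Acute phase proteins are secreted proteins whose plasma levels change in infection and injury. In the liver they are induced mainly by interleukin-6 acting through Stat3 and by interleukin-1 and tumour necrosis factor acting through NF-κB and C/EBP factors. Several are also made outside the liver, by fibroblasts and macrophages, where they bind microbes and free haemoglobin, or attach to the extracellular matrix. In joint and tendon tissue, chitinase-like protein 1 is known as a product of stressed chondrocytes and synovial cells, and the long pentraxin Ptx3 is known as a matrix protein.

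The deposited values were log2 probe set values, and they were used unchanged. The probe set of Mkx read 2.71 on the array labelled Venus-Mkx, 7.43 on the Venus array and 6.88 on the C3H10T1/2 array, which goes against the label. The vector's Mkx sequence may or may not contain this probe set, which was not determined, so its value does not settle the label. Col1a1, a collagen gene of the tendon and ligament matrix that is named here after its values were seen, was higher on the array labelled Venus-Mkx, with 13.22 there, 11.88 on the Venus array and 11.52 on the C3H10T1/2 array. Col1a2, the gene of the other chain of this collagen, differed little. It read 13.91 on the array labelled Venus-Mkx, 13.75 on the Venus array and 13.71 on the C3H10T1/2 array. Neither gene settles the label. Every direction below depends on the labels being right. The median of all values, 4.34, was taken as a floor below which a value was not read as a level. Of 11 mesenchymal marker genes, 10 were above this floor on each of the 3 arrays. A gene was called higher or lower when its value on the array labelled Venus-Mkx differed at least 2-fold, in the same direction, from both control arrays. With 1 array per condition there is no replicate error, and no difference was tested. As the only measure of spread, the difference between the Venus and C3H10T1/2 arrays had an SD of 0.34 over the 11169 genes whose highest value reached the floor, and 2.5% of these differences lay below −0.46 and 2.5% above 0.79. These figures include any effect of the vector. They also include genes that reached the floor only on the array labelled Venus-Mkx, such as Chil1, whose control values are not read as levels.

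Of the 8 genes, 5 were higher on the array labelled Venus-Mkx than on both control arrays, namely Chil1, Lbp, Hp, Lgals3bp and Lyz2. Ptx3 was lower, and Saa3 and Orm1 were neither. Over all 18193 genes, 4.36% were called higher and 3.29% lower by the same rule. Because the genes were chosen with these values known, nothing is read from the excess over these shares. The same shares stand beside the counts of the gene lists below, from which likewise nothing is read. Orm1 was the only one whose 3 values all lay below the floor. The median of all 8 differences from Venus was 2.34 on the log2 scale, against 0.00 over all genes, and fell to 0.71 with all values below the 75th percentile raised to it, so its size depends on the floor. As deposited, the median difference from C3H10T1/2 was 2.91, against 0.00 over all genes. Both comparisons share the array labelled Venus-Mkx. Between the control arrays the median of the 8 differences, Venus minus C3H10T1/2, was −0.05, they ran from −0.37 to 0.97, and none of the 8 reached 2-fold. For Chil1, Saa3 and Orm1, 3 of the 8, both control values were below the floor, so these could show no difference there. Few genes of any kind reached 2-fold upward between the controls, where 2.5% of the 11169 genes lay above 0.79.

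**Figure D1:**
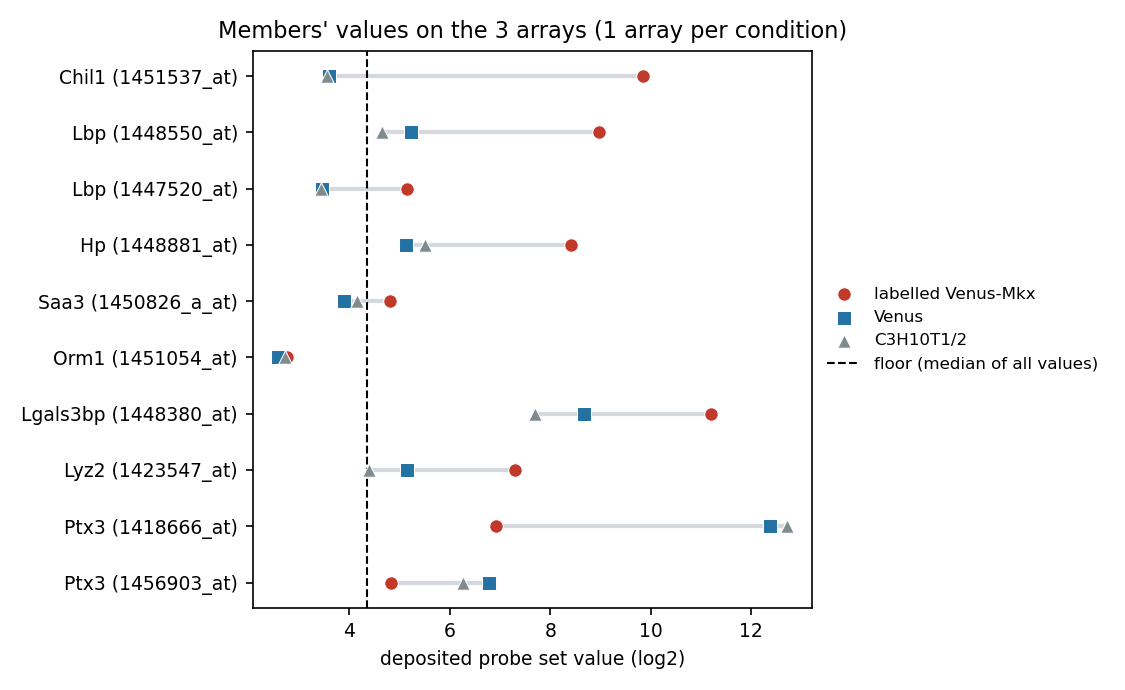
Deposited log2 value (x axis) of each of the 10 probe sets (rows) on the array labelled Venus-Mkx (red circles), the Venus array (blue squares) and the C3H10T1/2 array (grey triangles), with 1 array per condition and the floor of 4.34 as a dashed line. The red circle lies right of both controls for Chil1, Lbp, Hp, Saa3, Lgals3bp and Lyz2 and left of both for the 2 probe sets of Ptx3, whereas the 3 symbols of Orm1 lie close together below the floor.

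Chil1 had the largest fold shown among the genes called higher. It encodes chitinase-like protein 1, also known as YKL-40 in humans, a secreted lectin that binds chitin and lacks chitinase activity. Its probe set read 9.84 on the array labelled Venus-Mkx, 3.60 on the Venus array and 3.55 on the C3H10T1/2 array. The first value was well above the floor and both control values were below it. Its fold difference is therefore only a lower bound, at least 45.3-fold above either control, and at least 6.48-fold with the floor set at the 75th percentile of all values. No other chitinase-like or chitinase gene was called. Of 8 genes of this family with a probe set, Chil1 was the only one called higher and none was lower. Chil3 read 1.96 on each of the 3 arrays and Chia1, which encodes acidic mammalian chitinase, 3.04 on each. Chid1, which encodes a chitinase domain protein of lysosomes, read 8.40 on the array labelled Venus-Mkx, 7.81 on the Venus array and 7.34 on the C3H10T1/2 array.

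Lbp and Hp were also far above both controls. Lbp encodes lipopolysaccharide-binding protein, which hands bacterial lipopolysaccharide to Cd14 and the receptor Tlr4. Its main probe set, 1448550_at, read 8.96 on the array labelled Venus-Mkx, 5.22 on the Venus array and 4.65 on the C3H10T1/2 array. All 3 values were above the floor, and the first was 13.4-fold above Venus and 19.9-fold above C3H10T1/2, or at least 3.52-fold above either with the floor at the 75th percentile. The other probe set, 1447520_at, read 5.16 on the array labelled Venus-Mkx, 3.46 on the Venus array and 3.43 on the C3H10T1/2 array. It had the same direction, but with both controls below the floor it shows only a difference of at least 1.76-fold. Among 5 genes of the family of Lbp and bactericidal proteins, Lbp alone was called. Pltp, which encodes the phospholipid transfer protein of plasma, read 9.54 on the array labelled Venus-Mkx, 9.05 on the Venus array and 9.27 on the C3H10T1/2 array.

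Hp encodes haptoglobin, which binds free haemoglobin for clearance by the receptor Cd163. Its probe set read 8.40 on the array labelled Venus-Mkx, 5.13 on the Venus array and 5.50 on the C3H10T1/2 array. This placed it 9.67-fold above Venus and 7.48-fold above C3H10T1/2, with the Venus value 0.37 below that of C3H10T1/2 on the log2 scale. With the floor at the 75th percentile it was at least 2.39-fold above either. The genes of its receptor and of a related carrier were below the floor. Cd163 read 2.03 on each of the 3 arrays, and Hpx, which encodes the haem carrier hemopexin, read 4.15 on each.

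Lgals3bp and Lyz2 were above both controls, and Lgals3bp also differed between the controls, in the same direction. Lgals3bp encodes galectin-3-binding protein, a secreted glycoprotein of the scavenger receptor family that is known to be induced by interferons. It read 11.20 on the array labelled Venus-Mkx, 8.67 on the Venus array and 7.70 on the C3H10T1/2 array. The first value was 5.77-fold above Venus and 11.3-fold above C3H10T1/2. The difference of 0.97 between the controls lay outside the range that held the middle 95% of genes, and it made up 27.8% of the whole difference of 3.50 between Venus-Mkx and C3H10T1/2. Its partner Lgals3, the gene of galectin-3, read 11.77 on the array labelled Venus-Mkx, 12.63 on the Venus array and 12.77 on the C3H10T1/2 array and was not called. Lgals9, the gene of galectin-9, was higher, with 9.17 on the array labelled Venus-Mkx, 7.73 on the Venus array and 7.84 on the C3H10T1/2 array.

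Lyz2 encodes the M type lysozyme, an enzyme that cleaves bacterial cell walls and is a widely used marker of macrophages and neutrophils. It read 7.30 on the array labelled Venus-Mkx, 5.14 on the Venus array and 4.39 on the C3H10T1/2 array, the last of these close to the floor. The first value was 4.46-fold above Venus and 7.54-fold above C3H10T1/2. The difference of 0.76 between the controls lay within the range that held the middle 95% of genes, and it was 26.0% of the difference of 2.91 between Venus-Mkx and C3H10T1/2. With the floor at the 75th percentile, the difference of Lyz2 is only shown to be at least 1.11-fold, so its call rests on the floor. Lyz1, the gene of the P type lysozyme and a close copy of Lyz2, was read by 3 probe sets. Probe set 1436996_x_at read 8.28 on the array labelled Venus-Mkx, 5.86 on the Venus array and 3.68 on the C3H10T1/2 array, and 1439426_x_at read 7.04 on the array labelled Venus-Mkx, 4.77 on the Venus array and 3.98 on the C3H10T1/2 array. The third, 1450822_at, read 2.58 on each. The 2 probe sets that reached the floor carry the suffix _x_at, which marks probes shared with other transcripts. How much of their signal came from Lyz2 was not determined, so the call of Lyz1 is uncertain. The probe set of Lyz2, 1423547_at, carries no such suffix. Of 9 genes of the lysozyme family, Lyz2 and Lyz1 alone were called, the latter on such a shared probe set. Among 10 genes of other secreted antibacterial proteins, Lcn2 and Camp, the gene of the antimicrobial peptide cathelicidin, were higher and none was lower.

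Because Lyz2 marks macrophages, and these arrays measured bulk RNA, in which more cells of a type and more RNA per cell cannot be told apart, the macrophage markers are given beside it. Of 15 such genes, the same number, 3, reached the floor on each array. Ptprc, Adgre1, Itgam and Cd68 were below the floor on all 3 arrays. The mean log2 value of the list was 3.38 on the array labelled Venus-Mkx, 3.30 on the Venus array and 3.22 on the C3H10T1/2 array. Csf1r, the receptor of a macrophage growth factor, was the only marker called higher, and its 3 probe sets did not read alike. Its probe set 1419872_at read 6.62 on the array labelled Venus-Mkx, 5.39 on the Venus array and 4.45 on the C3H10T1/2 array, whereas 1423593_a_at was 0.21 above Venus and 0.12 above C3H10T1/2. Of 9 neutrophil markers, Camp alone was called higher and the others were below the floor on all 3 arrays. Of 8 hepatocyte markers none was called, and Alb, the gene of albumin, read 2.77 on each array.

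**Figure D2:**
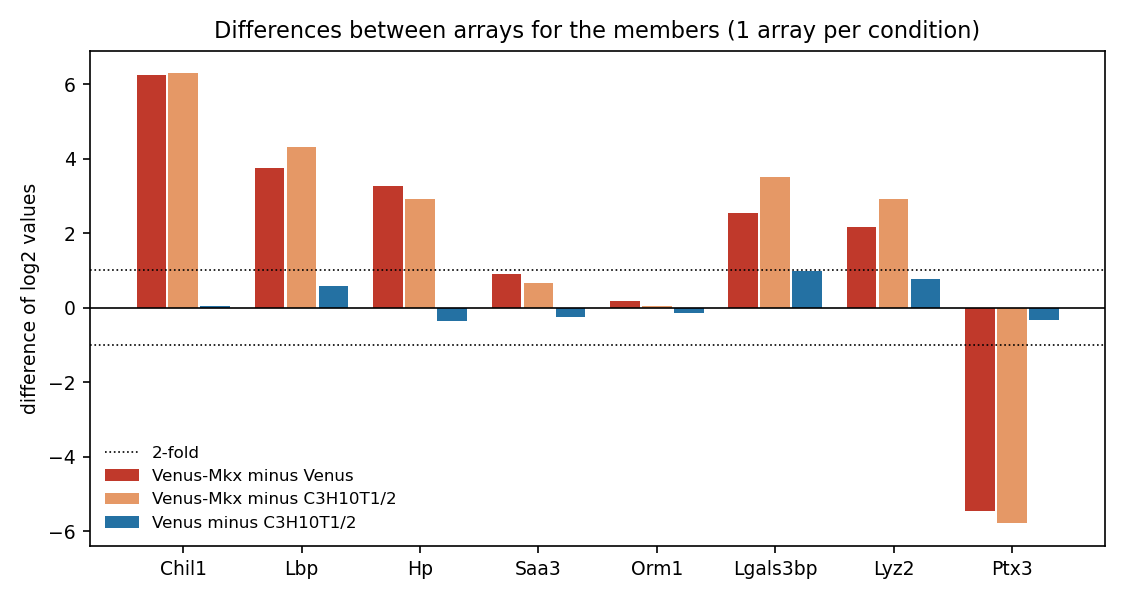
Differences of log2 values (y axis) for the main probe set of each of the 8 genes (x axis), with Venus-Mkx minus Venus in red, Venus-Mkx minus C3H10T1/2 in orange and Venus minus C3H10T1/2 in blue, from 1 array per condition, and dotted lines at 2-fold. The red and orange bars pass 2-fold upward for Chil1, Lbp, Hp, Lgals3bp and Lyz2 and downward for Ptx3, and no blue bar reaches 2-fold. The bars of Chil1, Saa3 and Orm1 rest on control values below the floor and have no exact size.

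Ptx3 was the gene that ran the other way. It encodes pentraxin 3, a secreted pattern recognition protein that also takes part in building the hyaluronan matrix. Its main probe set, 1418666_at, read 6.92 on the array labelled Venus-Mkx, 12.37 on the Venus array and 12.70 on the C3H10T1/2 array. The first value was 43.9-fold below Venus and 55.1-fold below C3H10T1/2, and still above the floor. Its difference of −5.46 from Venus was the 7th lowest of all 18193 genes. The second probe set, 1456903_at, read 4.83 on the array labelled Venus-Mkx, 6.78 on the Venus array and 6.27 on the C3H10T1/2 array, which is 3.88-fold below Venus and 2.71-fold below C3H10T1/2. Both probe sets thus had the same direction and differed in size. No other pentraxin gene was called. Of 6 with a probe set, Crp read 2.26 and Apcs 4.47 on each of the 3 arrays, and Crp, Nptx1 and Nptx2 were below the floor. Tnfaip6 and Itih2, whose products work with pentraxin 3 in crosslinking hyaluronan, were read beside it. Itih2 was lower, with 4.58 on the array labelled Venus-Mkx, 6.38 on the Venus array and 5.59 on the C3H10T1/2 array. It was only 2.01-fold below C3H10T1/2, just past the limit, and the controls differed by 0.79 on the log2 scale. The related gene Itih1 was below the floor on all 3 arrays. Tnfaip6 read 5.61 on the array labelled Venus-Mkx, 6.07 on the Venus array and 5.93 on the C3H10T1/2 array and was not called.

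Saa3 and Orm1 were not called and lay below the floor in the controls. Saa3 encodes a serum amyloid A protein that in mice is made largely outside the liver. It read 4.81 on the array labelled Venus-Mkx, 3.90 on the Venus array and 4.15 on the C3H10T1/2 array, so only the first value was above the floor. The difference as read was 0.91 from Venus and 0.66 from C3H10T1/2, short of 2-fold for both, and it is only shown to be at least 1.38-fold. Saa1, Saa2 and Saa4 each held an equal value on the 3 arrays, below the floor. Orm1 encodes alpha-1-acid glycoprotein, a lipocalin that carries lipids and drugs in plasma. It read 2.76 on the array labelled Venus-Mkx, 2.58 on the Venus array and 2.72 on the C3H10T1/2 array, all below the floor, so no fold is given. Its copies Orm2 and Orm3 were also below the floor on all 3 arrays. Of a chosen list of 8 lipocalin genes, which is not the whole family, 2 were called, both higher. One was Lcn2, described below, and the other was Rbp4, the gene of plasma retinol-binding protein, with 6.62 on the array labelled Venus-Mkx, 2.91 on the Venus array and 2.77 on the C3H10T1/2 array.

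Sequence upstream of the start site was available for Chil1, Ptx3, Saa3, Lyz2 and Lgals3bp, 5 of the 8 genes, in a RefSeq table of the build GRCm38.p6 that holds 250 bases before to 50 after each start. The windows were searched on both strands for 6 motifs, those of factors that act on acute phase and interferon genes and the general TATA box. The κB motif was cut to the last 9 letters of its element. A κB motif written as GGNNTTNCC was present in 16.0% of all 32851 windows of this length, a C/EBP motif TTGCNNAA in 10.8%, an interferon response motif GAAANNGAA in 8.56%, a STAT motif TTCNNNGAA in 8.30%, an AP-1 motif TGANTCA in 7.81% and a TATA box TATAAA in 13.6%. The windows of Chil1, Lyz2 and Lgals3bp held none of the 6, as did 51.4% of all windows. Those of Ptx3 and Saa3 held a κB match and a C/EBP match each, and that of Saa3 also an interferon response match. These matches are letters in a window and not measured sites. The windows of Chil1 (chr1:134181906-134182205, plus strand), the gene with the largest upward fold shown, of Ptx3 (chr3:66219637-66219936, plus strand), the gene called lower, and of Saa3 (chr7:46715627-46715926, minus strand), the one with the most matches, are printed from 5′ to 3′ with matches in capitals.
Chil1: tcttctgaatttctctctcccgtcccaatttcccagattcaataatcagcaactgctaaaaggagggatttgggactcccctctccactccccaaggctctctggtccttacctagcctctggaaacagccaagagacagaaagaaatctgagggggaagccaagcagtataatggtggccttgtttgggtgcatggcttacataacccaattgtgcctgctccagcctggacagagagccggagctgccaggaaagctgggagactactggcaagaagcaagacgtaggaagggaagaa
Ptx3: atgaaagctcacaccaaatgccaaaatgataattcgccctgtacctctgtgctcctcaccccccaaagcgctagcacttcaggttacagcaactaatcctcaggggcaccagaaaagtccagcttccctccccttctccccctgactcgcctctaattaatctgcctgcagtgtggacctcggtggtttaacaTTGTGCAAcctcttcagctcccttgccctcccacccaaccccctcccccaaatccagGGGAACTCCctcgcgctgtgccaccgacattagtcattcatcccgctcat
Saa3: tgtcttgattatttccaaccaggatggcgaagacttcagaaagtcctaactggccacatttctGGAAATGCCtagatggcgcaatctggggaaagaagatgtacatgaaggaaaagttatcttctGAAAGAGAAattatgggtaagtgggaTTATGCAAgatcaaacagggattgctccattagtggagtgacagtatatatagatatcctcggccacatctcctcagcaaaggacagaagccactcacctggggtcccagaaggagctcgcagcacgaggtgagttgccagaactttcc
With the start site counted as 0, the match in Ptx3 at −57 is TTGTGCAA, of the C/EBP motif, and the match at 0 is GGGAACTCC, of the κB motif. In Saa3 the κB match GGAAATGCC begins at −187, the interferon response match GAAAGAGAA at −125 and the C/EBP match TTATGCAA at −99.

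Most other acute phase genes were not read above the floor, and those that were higher lay below the floor on both control arrays. Of 23 with a probe set, 4 were higher, 1 was lower and 18 were neither, 14 were below the floor on all 3 arrays and 8 held an equal value on all 3. Their median difference from Venus was 0.00. By the same rule 4.36% of all genes were higher and 3.29% lower, and the list was chosen with earlier results known. Lcn2, which encodes lipocalin 2, a protein that binds bacterial iron carriers, read 10.00 on the array labelled Venus-Mkx, 2.57 on the Venus array and 2.53 on the C3H10T1/2 array, at least 50.6-fold above either control. Cfb, the gene of complement factor B, read 9.76 on the array labelled Venus-Mkx, 3.99 on the Venus array and 4.15 on the C3H10T1/2 array, at least 42.9-fold above either. Steap4, which encodes a metalloreductase, was at least 7.33-fold above either control. Lrg1, which encodes a leucine-rich glycoprotein of plasma, read 5.67 on the array labelled Venus-Mkx, 2.40 on the Venus array and 2.62 on the C3H10T1/2 array. Mt2, the gene of metallothionein 2, was lower, with 6.29 on the array labelled Venus-Mkx, 8.22 on the Venus array and 8.15 on the C3H10T1/2 array. The classical hepatic genes Crp, Fgb, Fgg and Hpx held equal values on the 3 arrays, and all 4 were below the floor.

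Among 26 genes that carry the acute phase signal, 5 were higher and none was lower. Their median difference from Venus was 0.25. The shares over all genes were 4.36% higher and 3.29% lower. This list too was chosen with earlier results known, so nothing is read from its count. The ligands themselves gave no common direction. Il6 read 5.84 on the array labelled Venus-Mkx, 6.36 on the Venus array and 4.73 on the C3H10T1/2 array, and Il1b and Tnf were below the floor on all 3. Lif, a ligand of the interleukin-6 family, was higher, with 5.75 on the array labelled Venus-Mkx, 4.02 on the Venus array and 3.64 on the C3H10T1/2 array, at least 2.66-fold above either control. The receptor genes of this family Lifr and Osmr were higher as well. On the log2 scale, Lifr was 1.69 above Venus and 1.90 above C3H10T1/2, and Osmr was 1.43 above Venus and 1.04 above C3H10T1/2. The shared receptor chain Il6st was within 0.18 of both. Stat3 read 9.42 on the array labelled Venus-Mkx, 8.48 on the Venus array and 8.62 on the C3H10T1/2 array, short of 2-fold. Socs3, a feedback inhibitor that Stat3 induces, was higher on each of its 3 probe sets, and the main one read 11.48 on the array labelled Venus-Mkx, 9.54 on the Venus array and 9.19 on the C3H10T1/2 array. Cebpb, which encodes a transcription factor of acute phase genes, was higher on both of its probe sets, the main one with 12.21 on the array labelled Venus-Mkx, 10.08 on the Venus array and 10.40 on the C3H10T1/2 array. Its relative Cebpd ran the other way, with 9.37 on the array labelled Venus-Mkx and 10.35 on both control arrays, and was not called.

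Of 19 genes for receptors and binding partners of these proteins, 1 was higher and 2 were lower, with a median difference of −0.03 from Venus. Among all genes 4.36% were higher and 3.29% lower. Tlr4, the lipopolysaccharide receptor to which the product of Lbp delivers, was lower. Its main probe set read 4.12 on the array labelled Venus-Mkx, 7.67 on the Venus array and 7.59 on the C3H10T1/2 array, so that it was at least 10.0-fold lower than in Venus and at least 9.50-fold lower than in C3H10T1/2. Of its other 3 probe sets, 1418163_at and 1442827_at were also lower and 1430695_at was below the floor on all 3 arrays. Cd14 read 6.49 on the array labelled Venus-Mkx, 6.99 on the Venus array and 6.62 on the C3H10T1/2 array, and Ly96, whose product binds lipopolysaccharide with Tlr4, read 6.45 on the array labelled Venus-Mkx, 5.82 on the Venus array and 5.26 on the C3H10T1/2 array. Lbp and its receptor gene Tlr4 thus differed from the controls in opposite directions, and Cd14 and Ly96 were not called.

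**Figure D3:**
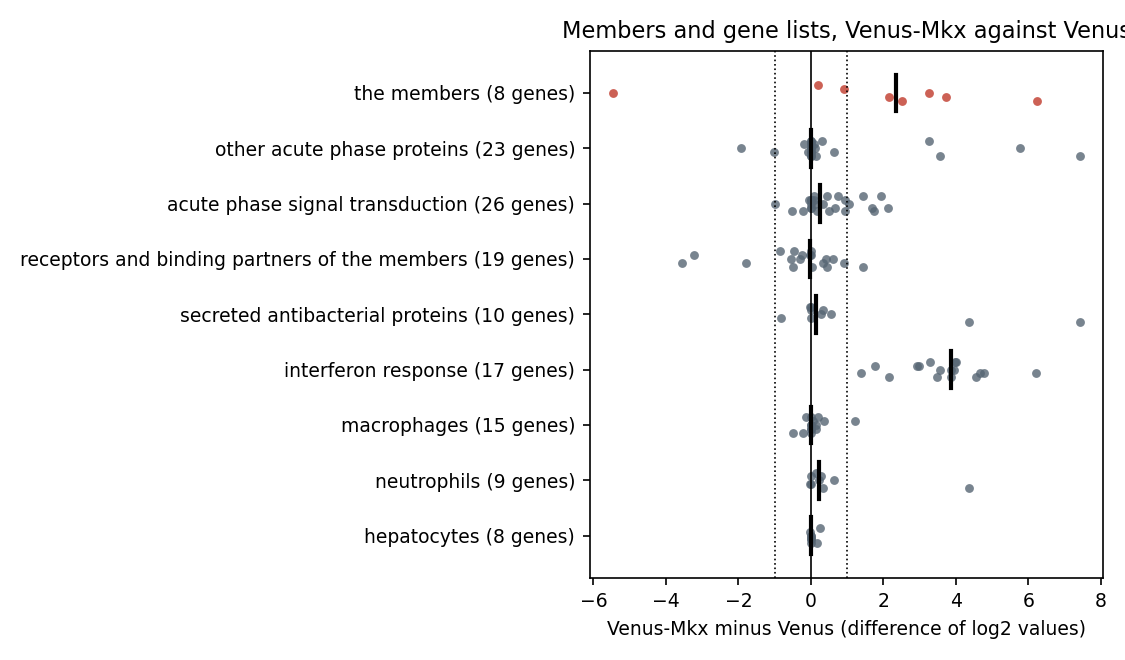
Difference of log2 values, Venus-Mkx minus Venus (x axis), for the 8 genes described here and for 8 gene lists (rows), with a point for each gene, a black bar at each median and dotted lines at 2-fold, from 1 array per condition. The median is 2.34 for the 8 genes and 3.86 for the interferon response genes, and between −0.03 and 0.25 for the other lists.

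All 17 interferon response genes with a probe set were higher on the array labelled Venus-Mkx, with a median difference of 3.86 from Venus. Over all genes, 4.36% were called higher. This list was chosen with earlier results of these data known, so nothing is read from the count. On the Venus array, 12 of these 17 genes were as read at least 2-fold above C3H10T1/2, and 10 were shown to be with values below the floor raised to it. Oasl2 and Mx1 were the other two. Of the genes described here, Hp, Lbp, Lyz2, Lgals3bp and Ptx3 could be compared between the control arrays, and none of them reached 2-fold. The largest of their differences was that of Lgals3bp, 0.97 on the log2 scale. Of the 11169 genes that reached the floor, 2.5% lay above 0.79 between the controls, so few genes of any kind reached 2-fold upward. Nothing is read from the contrast with the interferon response genes. The part of the interferon response in any of these differences was not tested.

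**Figure D4:**
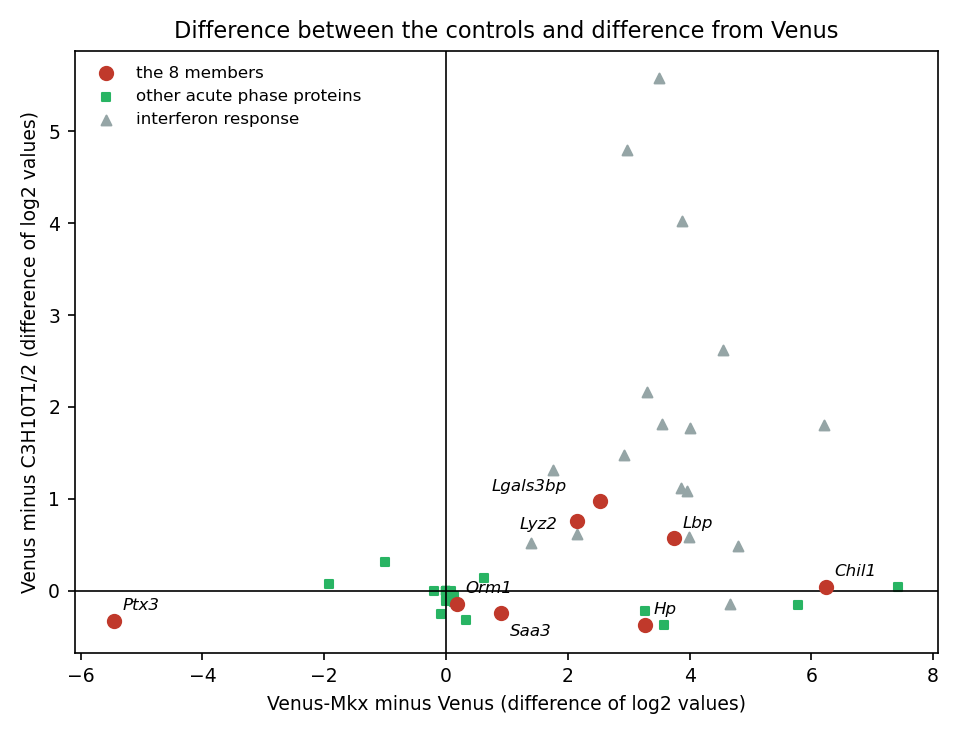
Venus minus C3H10T1/2 (y axis) against Venus-Mkx minus Venus (x axis), both as differences of log2 values, for the 8 genes described here (red, named), the 23 other acute phase genes (green squares) and the 17 interferon response genes (grey triangles). Lgals3bp and Lyz2 lie at 0.97 and 0.76 on the y axis, Hp lies below 0 and Ptx3 lies far left. Chil1, Saa3 and Orm1 were below the floor on both control arrays, so their height shows no difference between the controls, and both axes share the Venus array.

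For each gene the genes with the most similar pattern were sought by the Euclidean distance of their 3 centred log2 values, among 1968 genes that reached the floor and varied at least 2-fold. With 3 arrays such likeness is weak and is given as a description. Nearest to Hp was Lrg1, another acute phase gene, at 0.12, followed by Cntn1, and nearest to Lyz2 was Parp12, an interferon-induced gene, at 0.07, followed by Rtn2. Nearest to Lbp were Gm2a at 0.09 and Uba7, which encodes the activating enzyme of an interferon-induced ubiquitin-like protein, at 0.12. Nearest to Chil1 were Mmp13, the gene of a collagenase, at 0.16 and Tnxb at 0.19, and nearest to Ptx3 were Adamtsl3 at 0.17 and the scavenger receptor gene Scara5 at 0.17. Lgals3bp was nearest to Grina at 0.05 and Olfml3 at 0.07. Both control values of Chil1, Lrg1, Cntn1, Rtn2, Mmp13 and Tnxb were below the floor. Distances that involve these genes used the values as deposited and have no exact size. Slc6a9 and Kmt2c were nearest to Saa3, both at 0.07, but Saa3 varied less than 2-fold and was below the floor on both control arrays. Its distances therefore rest on values not read as levels. Orm1, which was below the floor on all 3 arrays and also varied less than the genes searched, could not be compared in this way.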

How the data were processed

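Total RNA of each condition was labelled with a 3′ in vitro transcription kit and hybridized to 1 Affymetrix array. The authors deposited log2 probe set values with no detection calls. The submitters' processing notes name RMA, its version not given in the sources used here, whereas the methods of the study name MAS 5.0, whose signals are linear. The values ran from 1.44 to 14.00 and had medians of 4.39 on the array labelled Venus-Mkx, 4.34 on the Venus array and 4.34 on the C3H10T1/2 array, and 24.6% of probe sets held an equal value on all 3. They were therefore treated as normalized log2 values and used unchanged, and no further precision can be given from 1 array per condition.

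Of 45101 probe sets, 64 controls were left out, 34945 were paired with 1 symbol, 932 with several and 9160 with none, through GEO's platform annotation. Each gene was represented by its probe set of highest mean value. Calls required a difference of 2-fold or more from each control array in the same direction, and a value below the floor was raised to the floor to give a lower bound of a fold. The named genes were the 8 genes with every probe set, Mkx, the called genes of each list with up to 4 others, and the 2 nearest genes by pattern. Further probe sets of Lyz1, Csf1r, Cebpb, Socs3 and Tlr4, and further uncalled genes, were included with their values known. The 8 genes and the lists were chosen with earlier results of these data known. The counting rule was tested on simulated data. Lists of endothelial, epithelial and housekeeping genes were read as checks: of 7 endothelial genes Tek alone was higher, and of 7 epithelial and 7 housekeeping genes none was called. Alternatives covered the probe set per gene, the scale, the floor, the control and the fold. Promoter sequences came from RefSeq (GRCm38.p6). Python 3.11.15, NumPy 2.4.6, pandas 2.3.3 and matplotlib 3.10.9 were used.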

Additional observations from a re-analysis of the deposited data

How the results depend on the processing

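The count of 5 genes called higher was within 1.5 times of its value under all 12 alternatives. It was 6 at 1.5-fold, where Saa3 was added, 4 at 5-fold or with values under the 75th percentile raised to it, where Lyz2 was lost, and 5 under the others. The median difference from Venus, 2.34, moved by more than the SD between the controls under 3 alternatives. It was 0.71 with values below the 75th percentile raised to it, 2.78 against the mean of both controls and 2.91 against C3H10T1/2. The median difference between the controls, −0.05, moved by less than that SD under its 6 alternatives. Over the alternatives of probe set, scale and floor, the difference from Venus of Chil1 ran from 2.70 to 6.25. That of Hp ran from 1.26 to 3.32, of Lbp from 1.81 to 3.78 and of Lyz2 from 0.15 to 2.20. That of Lgals3bp ran from 2.48 to 2.57 and of Ptx3 from −5.50 to −3.70. The differences of Saa3, from 0.00 to 0.91, and of Orm1, from 0.00 to 0.19, fell to 0.00 with low values raised. No sign was reversed. The upper end for Chil1 is as read, with control values below the floor. Raising low values shrinks a difference by its own construction and cannot reverse it, so under those alternatives the unchanged signs are no check of direction. Signal over background limits Saa3, Orm1 and the control values of Chil1. It also limits the sizes for Lyz2, Hp and Lbp, whose lowest differences came from raising values below the 75th percentile. No paired analysis was possible because each condition has 1 array.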
